A study of Homo sapiens with 12 samples.

Results

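A set of 32 genes known as transcriptional targets of the tumor suppressor p53 were followed in the human leukemia line CCRF-CEM, which derives from T lymphoblasts. The genes were chosen by name, and genes of cyclin-dependent kinase inhibitors and of the BCL2 family were left out of the set. All 32 had a row in the deposited tables, which together listed 43828 gene places. RNA was sequenced from 4 groups of 3 libraries each: SLFN11-positive parent cells given the solvent DMSO, parent cells given 100 nM camptothecin for 4 h, cells labelled SLFN11 knockout given DMSO, and knockout cells given 100 nM camptothecin for 4 h. Camptothecin holds topoisomerase I bound to the DNA it has nicked, which breaks DNA when replication forks arrive. SLFN11 acts at stalled forks and makes tumor cells more sensitive to such drugs. How the SLFN11 gene was disrupted, whether the knockout cells are 1 clone and whether the replicates are separate cultures is not in the labels. P-values therefore describe the spread between libraries, part or all of which may be technical.

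p53 is a transcription factor that is stabilized when DNA is damaged and then activates genes for cell cycle arrest, DNA repair, metabolic adjustment and cell death. One of its targets, MDM2, encodes the ubiquitin ligase that removes p53, so that the response limits itself. Several of the genes studied are also activated by other factors, so a change in a gene of the set is not by itself a readout of p53.

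Libraries held 42439957 to 63606344 exon reads, except parent control replicate 1, which held 135592046 and also had the lowest share of reads in introns, 26.31% against 28.65% to 33.55% elsewhere. Its library name also follows a different pattern in the sample titles, so a batch of its own cannot be told apart from the other differences. SLFN11 itself was still transcribed in the cells labelled knockout: its exon level was 112.3 ± 4.93 CPM (reads scaled to a common library size; SD, n = 3) in untreated parent cells and 86.92 ± 1.58 in untreated knockout cells, a log2 difference of -0.37 (edgeR adjusted p = 0.000133), so RNA level did not serve as a check of the knockout. All 12 T lymphoblast markers examined exceeded 1 CPM in all 12 libraries, and 3 of 5 B lineage markers did so too (CD79A, CD79B and VPREB1), whereas none of the 6 myeloid, 3 erythroid or 7 epithelial and fibroblast markers did. The summed level of the T lymphoblast markers was 2160 to 2360 CPM in untreated and 1520 to 1540 CPM in treated parent libraries, and 2500 to 2510 against 1990 to 2000 CPM in knockout libraries; that of the B lineage markers was 42 to 42.8 against 29 to 31.3 CPM, and 51.7 to 54.5 against 44.7 to 51.5 CPM. The epithelial and fibroblast markers summed to 1.94 to 2.75 CPM in untreated parent and 7.94 to 8.17 CPM in untreated knockout libraries, most of it EPCAM in the latter, at 6.707 to 6.812 CPM. The part of these shifts in the results below was not tested. In bulk RNA, a change in the cells that express a gene and a change in RNA per cell cannot be told apart.

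Of the 32 genes, 29 had enough exon reads to be tested and 28 had enough intron reads. SPATA18, a mitochondrial quality control gene, had 0 exon reads in all 12 libraries, where 3 reads correspond to 0.0255 to 0.0654 CPM. GDF15, a stress cytokine, had 0 to 2 exon reads per library, and PLK2, a polo-like kinase, had 0 to 4, and neither was tested. LIF, a cytokine, was tested in exon reads only. Per kilobase of exon, untreated parent levels of the genes ran from 28.3 CPM for CCNG1 (cyclin G1), 24.6 for CYFIP2 (a cytoskeletal regulator) and 20.7 for DDB2 (the damage-recognition subunit of nucleotide excision repair) down to 0.0593 for LIF among the tested genes. CCNG1, CYFIP2 and DDB2 had SDs of 3.38, 1 and 1.12 CPM per kilobase, and differences between the levels of these genes were not tested. Only 15.8% of the exon reads of CCNG1 lay in stretches that no other gene overlaps.

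In parent cells, 4 h of camptothecin raised 10 of the 29 tested genes and lowered 3 in exon reads. The genes that rose included PLK3, PIDD, AEN and PPM1D, and those that fell were CYFIP2, ZMAT3 and APAF1. Among all 23546 genes tested in exon reads, 16.8% rose and 17.1% fell, against 34.5% and 10.3% of the p53 targets. Their median log2 change was 0.312, against 0.0126 for all genes. Changes were called at an adjusted p below 0.05 (edgeR quasi-likelihood test, Benjamini-Hochberg adjustment over all genes tested). In knockout cells 6 of the 29 genes rose and 3 fell, which is 20.7% and 10.3%, against 7.3% and 9.28% of all genes, and the median log2 change was 0.134 against 0.0176. Just 1 gene, PLK3, rose by more than 2-fold in parent cells. Scaled by library size alone, without the TMM correction used here, the median of all genes was 0.138 in parent and 0.171 in knockout cells; the share of called genes that rose went from 49.6% to 67.2% and from 44.0% to 78.6%, and 17 and 19 of the p53 targets rose. Without parent control replicate 1, 13 genes rose and 3 fell in parent cells, and 10 rose and 3 fell in knockout cells; over all genes the number that rose went from 3961 to 4609 in parent cells and from 1718 to 3157 in knockout cells. In knockout cells 2 of the p53 targets and 945 of all genes rose without knockout control replicate 1, and 3 and 1004 without knockout control replicate 3.

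**Figure D1:**
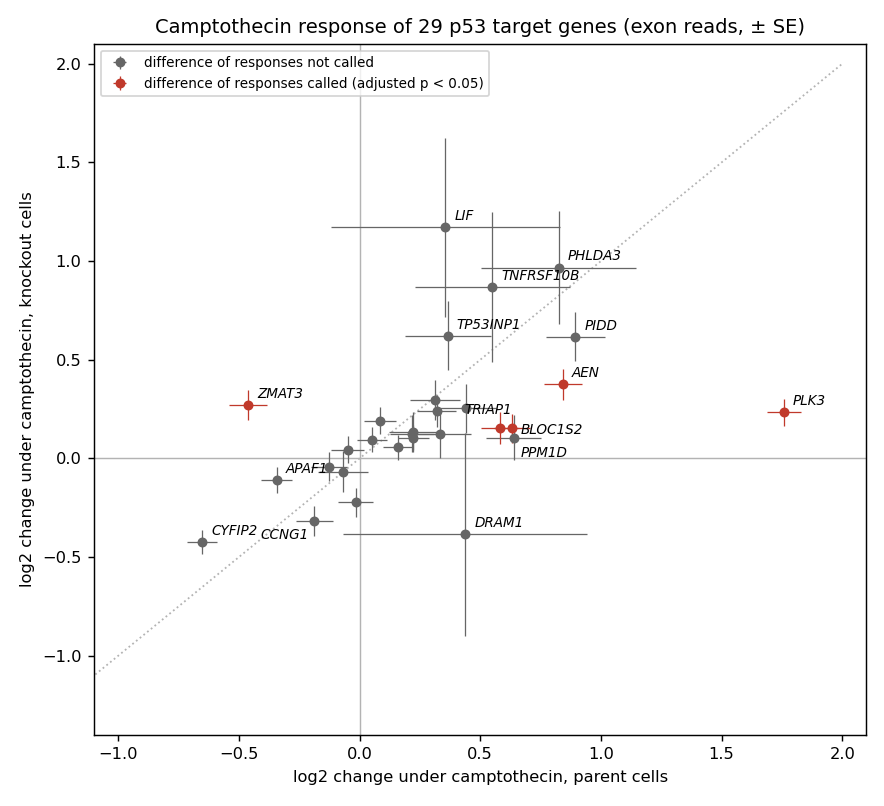
Log2 change under camptothecin in exon reads for the 29 tested p53 target genes in parent cells and in knockout cells, with bars for the standard error, a dotted line of equal change, and in red the genes whose responses differed by the test. PLK3 stands apart in parent cells at 1.76, and CYFIP2 is the lowest at -0.65.

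Promoter windows of RefSeq (GRCh38.p14 build, 250 bases before to 50 bases after the annotated start) were matched by symbol for 26 of the 32 genes. The decamer that p53 response elements repeat, searched by name on both strands, occurred in 5 of the 26 windows (19.2%), against 6.54% of 27305 promoter windows. A pair of decamers 0 to 13 bases apart occurred in 0 of the 26 and in 8 of all windows (0.0293%). These matches describe the letters only. Windows with a decamer belonged to AEN, FDXR, EI24, RPS27L and PLK2, of which AEN and FDXR rose in parent cells in exon reads and EI24 in intron reads. RPS27L did not rise there and PLK2 was not tested. Of all tested p53 targets, 34.5% rose in exon and 21.4% in intron reads of parent cells. A link between decamer and response was not tested. The 100 bases before the start of AEN, FDXR and EI24 are shown, picked because these genes rose in parent cells in exon or intron reads, with the decamer in capitals. They lie at chr15:88621240-88621339 on the plus strand, chr17:74872995-74873094 on the minus strand and chr11:125569377-125569476 on the plus strand.
AEN: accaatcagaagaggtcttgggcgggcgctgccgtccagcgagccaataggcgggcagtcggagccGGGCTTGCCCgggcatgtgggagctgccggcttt
FDXR: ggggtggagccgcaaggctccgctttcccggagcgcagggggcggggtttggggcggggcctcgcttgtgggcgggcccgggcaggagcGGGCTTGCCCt
EI24: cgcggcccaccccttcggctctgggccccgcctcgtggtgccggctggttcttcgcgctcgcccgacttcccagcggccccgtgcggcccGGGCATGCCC
AEN and FDXR share the same decamer letters. The AP-1 heptamer TGANTCA was found in 1 of the 26 windows, that of FAS, against 7.76% of all windows, and the kappaB decamer in 0 against 5.72%.

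PLK3, a polo-like kinase of the stress response (hg19 chr1:45265896-45271661), had the largest exon response of the set. Its exon level was 10.2, 10.5 and 10.6 CPM in the untreated parent libraries and 36.7, 34.4 and 34.6 CPM after camptothecin. It was 11.7, 11.6 and 11.5 CPM in untreated knockout libraries and 13.9, 13.2 and 13.8 CPM after camptothecin. All treated libraries lay above the untreated ones of the same cells, and the treated parent libraries lay above all others. The log2 change of PLK3 was 1.76 (SE 0.069, 3.38-fold, adjusted p = 1.16e-11) in parent cells and 0.23 (SE 0.0696, 1.18-fold, adjusted p = 0.0298) in knockout cells. The change in parent cells was called in every alternative analysis run, whereas the one in knockout cells was lost in 9 of 20, with adjusted p up to 0.161. The difference between the changes was -1.52 (SE 0.0974, adjusted p = 1.89e-08).

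**Figure D2:**
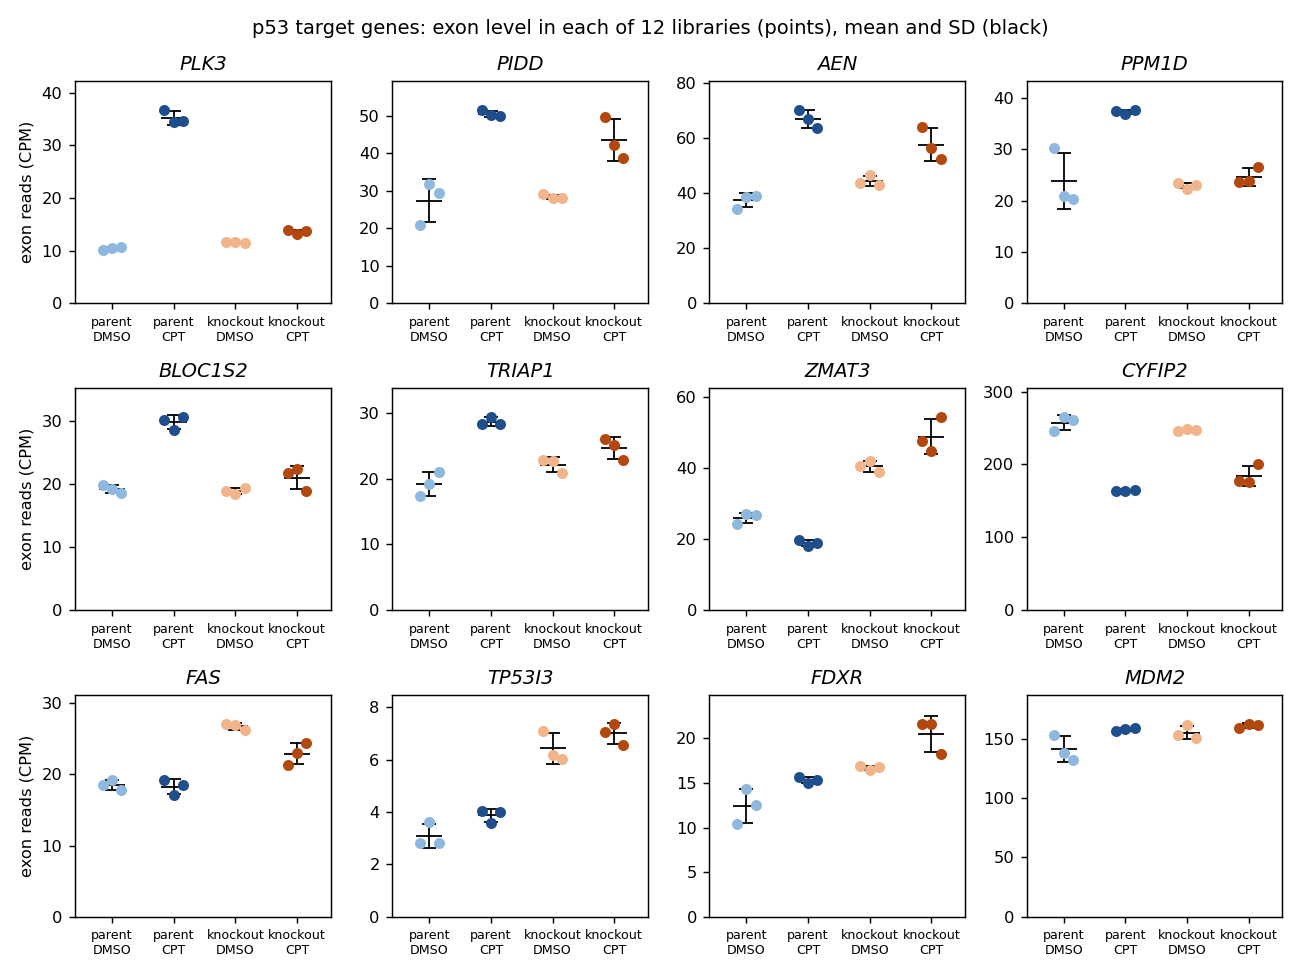
Exon level in CPM of selected p53 target genes in each of the 12 libraries, grouped by cells and treatment, with the group mean and SD in black and each axis starting at 0. PLK3 lies at 34.4 to 36.7 CPM in the treated parent libraries and at or below 13.9 CPM in the others.

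Among the genes that regulate p53 itself, 1 of 6 rose in parent cells and 1 rose and 1 fell in knockout cells. Over all genes 16.8% rose in parent cells, and 7.3% rose and 9.28% fell in knockout cells. Counts within this and the following groups of few genes describe single genes and are no result about the role. PPM1D encodes the phosphatase WIP1, which removes activating phosphates from p53 and ATM. Its untreated parent libraries read 30.2, 20.9 and 20.4 CPM, and the treated ones 37.4, 36.8 and 37.7 CPM. Knockout libraries read 23.4, 22.3 and 22.98 CPM without and 23.6, 23.8 and 26.6 CPM with camptothecin. The deepest library, parent control replicate 1, was the highest of the untreated libraries. PPM1D rose by 0.64 on the log2 scale in parent cells (SE 0.115, 1.56-fold, adjusted p = 0.000399) and by 0.86 without that library. The difference of its responses, knockout minus parent, was -0.53 (adjusted p = 0.0668), not called with that library and called without it at -0.75 (adjusted p = 1.7e-07); DESeq2 called it with all libraries (adjusted p = 0.0413).

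MDM2, the ubiquitin ligase of p53, was not called in either cell type. Its untreated parent libraries read 154, 139 and 132 CPM and its treated parent libraries 156, 158 and 159 CPM, a log2 change of 0.16 (SE 0.061, adjusted p = 0.0538) that was not called. Without parent control replicate 1 it was 0.23 (adjusted p = 8.02e-05) and called. In knockout cells MDM2 read 154, 162 and 151 CPM untreated and 159, 163 and 162 CPM treated, ranges that overlap. CCNG1, which recruits a phosphatase to MDM2, fell in knockout cells from 77.9, 80.5 and 81.4 to 65.3, 67.2 and 60.2 CPM (log2 -0.32, SE 0.0768, adjusted p = 0.00893). The 2 sets of libraries did not overlap, but the call was lost when only reads unique to CCNG1 were counted and when libraries were scaled by size alone, with adjusted p up to 0.155. TP53INP1, which promotes p53 phosphorylation and autophagy, read 3.09, 3.01 and 3.38 CPM in untreated and 4.12, 4.29 and 6.21 CPM in treated knockout libraries (log2 0.62, SE 0.175, adjusted p = 0.0216), a call lost in 3 of 19 alternative analyses. None of its exon reads lay outside NDUFAF6, a gene of mitochondrial complex I assembly, whose exon reads changed by 0.15 (adjusted p = 0.163). RPS27L, a ribosomal protein paralog, and FBXO22, an F-box protein, were not called in exon reads in either cell type.

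Of 4 genes for DNA repair and nucleotide supply, XPC and DDB2 rose in parent cells and no gene passed the test in knockout cells in edgeR (XPC alone had an unadjusted p below 0.05, at 0.00939, and DESeq2 called it, adjusted p = 0.047). XPC, the damage sensor of nucleotide excision repair, read 26.3, 21.2 and 22.0 CPM untreated and 28.3, 30.4 and 28.3 CPM treated in parent cells (log2 0.32, SE 0.0805, adjusted p = 0.00503). DDB2 read 36.7, 33.1 and 33.9 CPM untreated and 40.04, 40.3 and 40.8 CPM treated (log2 0.22, SE 0.0645, adjusted p = 0.0128). Treated libraries of both genes lay above all untreated ones, and the DDB2 call was lost in 3 of 20 alternative analyses. RRM2B, the p53-inducible ribonucleotide reductase subunit, changed by 0.22 in parent cells and was not called, but was called at 0.35 without parent control replicate 1. POLH, a translesion polymerase, changed by -0.05 in parent cells and was not called.

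Death receptors and cell death effectors moved in both directions. PIDD, which forms a caspase-2 platform, and AEN, a p53-induced exonuclease (hg19 chr15:89164526-89175512), rose in both cell types, whereas CYFIP2 (hg19 chr5:156693088-156822605) fell in both and APAF1, the core of the apoptosome, fell in parent cells. PIDD read 20.8, 31.8 and 29.3 CPM in untreated parent libraries and 51.5, 50.1 and 49.95 CPM in treated ones (log2 0.89, SE 0.124, 1.86-fold, adjusted p = 5.68e-05). In knockout cells it read 28.99, 28.1 and 28.1 CPM and, treated, 49.5, 42 and 38.8 CPM (log2 0.62, SE 0.125, 1.53-fold, adjusted p = 0.00331). Treated libraries exceeded all untreated ones in both cell types.

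AEN read 34.3, 38.6 and 38.9 CPM in untreated and 70.1, 66.8 and 63.5 CPM in treated parent libraries (log2 0.84, SE 0.0772, 1.79-fold, adjusted p = 2.79e-07). In knockout cells it read 43.7, 46.4 and 43.02 CPM untreated and 63.9, 56.4 and 52.4 CPM treated (log2 0.38, SE 0.0772, 1.30-fold, adjusted p = 0.00261). The ranges did not overlap in either cell type.

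CYFIP2 read 245, 265 and 261 CPM in untreated and 163, 164 and 164 CPM in treated parent libraries, a log2 change of -0.65 (SE 0.0617, adjusted p = 4.03e-07). In knockout cells it read 246, 248 and 248 CPM untreated and 178, 176 and 200 CPM treated, a log2 change of -0.42 (SE 0.0616, adjusted p = 0.000122). Untreated libraries lay above treated ones in both cell types. APAF1 read 37.2, 40.9 and 40.8 CPM in untreated and 31.5, 31.1 and 31.0 CPM in treated parent libraries (log2 -0.34, SE 0.0644, adjusted p = 0.000493). FAS, a death receptor, fell in knockout cells by 0.22 on the log2 scale (SE 0.0722, adjusted p = 0.0446), from 27.1, 26.9 and 26.2 to 21.4, 23.1 and 24.4 CPM, and this call was lost in 14 of 20 alternative analyses. EI24, an endoplasmic reticulum protein, and TNFRSF10B, the death receptor DR5, were not called by edgeR in exon reads under camptothecin. Without parent control replicate 1, EI24 was called in parent cells at 0.14 (adjusted p = 0.04) and in knockout cells at 0.20 (adjusted p = 0.00202), and DESeq2 called it in knockout cells with all libraries (adjusted p = 0.0498).

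Among the 6 genes of redox, metabolism and survival, TRIAP1, C12orf5 and FDXR rose in parent cells and PHLDA3 in knockout cells. TRIAP1, a mitochondrial lipid carrier that blocks apoptosome formation, read 17.4, 19.2 and 21.0 CPM in untreated and 28.3, 29.4 and 28.3 CPM in treated parent libraries (log2 0.58, SE 0.0795, 1.5-fold, adjusted p = 2.25e-05). None of its exon reads were unique to it. The overlapping gene AL021546.6 changed by -0.35 (edgeR adjusted p = 0.0237), at 101.5 to 143.9 CPM in untreated and 84.77 to 94.41 CPM in treated parent libraries. The source of the TRIAP1 reads among the 2 genes cannot be told apart. C12orf5, which encodes the fructose bisphosphatase TIGAR, read 8.04, 6.86 and 6.46 CPM untreated and 9.61, 10.0 and 9.51 CPM treated (log2 0.44, SE 0.122, adjusted p = 0.00944). FDXR, ferredoxin reductase, rose by 0.31 in parent cells (SE 0.103, adjusted p = 0.0265). The call was lost in 5 of 20 alternative analyses: without parent control replicate 1 (0.20, adjusted p = 0.076), without each treated parent library in turn and with only the groups compared, with adjusted p up to 0.0851. In knockout cells FDXR changed by 0.30 (SE 0.102, adjusted p = 0.0591), not called by edgeR but called by DESeq2 (adjusted p = 0.0363) and, when parent control replicate 1 was left out, by edgeR (adjusted p = 0.00235). PHLDA3, an inhibitor of AKT signaling, read 0.544, 1.06 and 0.585 CPM in untreated and 1.55, 1.44 and 1.32 CPM in treated knockout libraries (log2 0.97, SE 0.286, 1.96-fold, adjusted p = 0.0278), a call lost in 4 alternative analyses. Treated libraries of these genes lay above untreated ones, but PHLDA3 was measured near 1 CPM. SESN1, a sestrin, and TP53I3, a quinone oxidoreductase, were not called under camptothecin in exon reads; without parent control replicate 1, SESN1 was called in parent cells at 0.31 (adjusted p = 0.0119).

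DRAM1, an autophagy gene, and KIAA0247, a membrane protein gene, were not called in exon reads. LIF had 0.272, 0.276 and 0.251 CPM in untreated and 0.61, 0.693 and 0.501 CPM in treated knockout libraries (log2 1.17, adjusted p = 0.0912, not called). BLOC1S2, a subunit of lysosome trafficking complexes, rose in parent cells from 19.9, 19.2 and 18.6 to 30.2, 28.5 and 30.6 CPM (log2 0.63, SE 0.0736, 1.55-fold, adjusted p = 4.26e-06). Its knockout libraries read 18.9, 18.4 and 19.3 CPM untreated and 21.7, 22.3 and 18.9 CPM treated, ranges that overlap. ZMAT3, an RNA-binding protein that controls splicing (hg19 chr3:178735010-178790066), fell in parent cells and rose in knockout cells. It read 24.3, 26.9 and 26.6 CPM in untreated and 19.6, 18.03 and 18.8 CPM in treated parent libraries (log2 -0.46, SE 0.078, adjusted p = 0.000184), and 40.6, 42 and 38.8 against 47.5, 44.6 and 54.4 CPM in knockout libraries (log2 0.27, SE 0.0763, adjusted p = 0.0214). The opposite directions rest on treated libraries that lie entirely below, and entirely above, the untreated libraries of the same cells. The rise in knockout cells was lost in 4 alternative analyses.

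The difference of the responses was tested directly, as knockout minus parent. It was lower for 4 of the 29 genes (PLK3, BLOC1S2, AEN and TRIAP1) and higher for 1 (ZMAT3), which is 13.8% and 3.45%, against 4.47% and 1.84% of all genes. BLOC1S2 differed by -0.48 (SE 0.105, adjusted p = 0.00994), AEN by -0.47 (SE 0.109, adjusted p = 0.015) and TRIAP1 by -0.43 (SE 0.113, adjusted p = 0.0308). ZMAT3 differed by 0.73 (SE 0.109, adjusted p = 0.000419). The TRIAP1 difference was lost in 8 of 18 alternative analyses, and that of AEN without treated parent replicate 1 or untreated knockout replicate 2, where the count of lower differences was 2. Without parent control replicate 1, 6 genes were lower and 3 higher, while the calls over all genes went from 1487 to 3503, of which 434 and 1241 were higher.

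Intron reads come mostly from RNA that has not yet been spliced and were counted apart. In parent cells 6 of 28 genes rose and 2 fell in intron reads (21.4% and 7.14%, against 12.1% and 14.2% of 19908 genes). In knockout cells 3 rose and 2 fell (10.7% and 7.14%, against 7.85% and 9.05%). Of the 13 genes called in exon reads of parent cells, 6 had the same call in intron reads (PLK3, C12orf5, PIDD, PPM1D, CYFIP2 and ZMAT3), 7 were not called and 0 had the opposite call. EI24 and DRAM1 rose in intron reads only, EI24 by 0.41 (adjusted p = 0.00527) from 19.6, 20.2 and 19.6 to 26, 26.6 and 26.6 CPM, and DRAM1 by 1.05 (adjusted p = 0.022), at 0.84 to 3.43 CPM over the parent libraries. The DRAM1 call was lost without parent control replicate 3 and without treated parent replicate 3, with adjusted p up to 0.151. PLK3 rose by 1.504 in intron reads of parent cells (adjusted p = 1.71e-06), from 3.596, 3.59 and 4.30 to 11.7, 10.9 and 9.73 CPM, with no overlap.

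Of the 9 genes called in exon reads of knockout cells, 3 had the same call in intron reads (PHLDA3, TP53INP1 and CYFIP2) and 6 were not called, while SESN1 rose and RPS27L fell in intron reads only. PHLDA3 rose by 2.26 (SE 0.668, adjusted p = 0.0207) on 1 to 6 intron reads per untreated and 11 to 26 per treated knockout library, a call lost in 4 of 17 alternative analyses. The fall of CYFIP2 in introns, by 0.31 (adjusted p = 0.0328), was lost in 6 of 19, with adjusted p up to 0.154. TP53INP1 had the lowest adjusted p of these intron changes. It read 4.20, 5.51 and 3.78 CPM untreated and 11.3, 9.98 and 16.3 CPM treated (log2 1.47, adjusted p = 1.38e-05), while parent libraries read 4.03, 5.65 and 5.04 CPM untreated and 5.34, 5.56 and 5.36 CPM treated. The difference of responses was 1.31 (adjusted p = 0.00548). NDUFAF6 rose in the same intron comparison by 0.44 (adjusted p = 5.95e-05), and none of the intron reads of TP53INP1 were unique, so their source among the 2 genes cannot be told apart. SESN1 rose by 0.46 in introns of knockout cells (adjusted p = 0.00308), where treated libraries read 28.3, 29.5 and 34.4 CPM and untreated ones 20.7, 22.5 and 24.0 CPM. RPS27L fell by 0.47 in introns (adjusted p = 0.0191), but only 10.4% of its intron reads were unique, LACTB overlaps it, and with unique reads alone the change was -0.05 (adjusted p = 0.894). The difference of responses was higher for 1 gene and lower for 1 (TP53INP1 and PLK3), which is 3.57% each, against 3% and 2.81% of all genes. PLK3 differed by -1.22 (adjusted p = 0.00812). Without parent control replicate 1, 6 genes rose and 3 fell in introns of knockout cells. Over all genes the calls there went from 3363 to 4840, of which 1562 and 2233 were higher. No gene of the set fell there without untreated knockout replicate 1 or 3 or treated knockout replicate 1 (edgeR, count 0). In that order, these fits called 2199, 2221 and 2707 of all genes, of which 957, 955 and 1276 were higher.

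**Figure D3:**
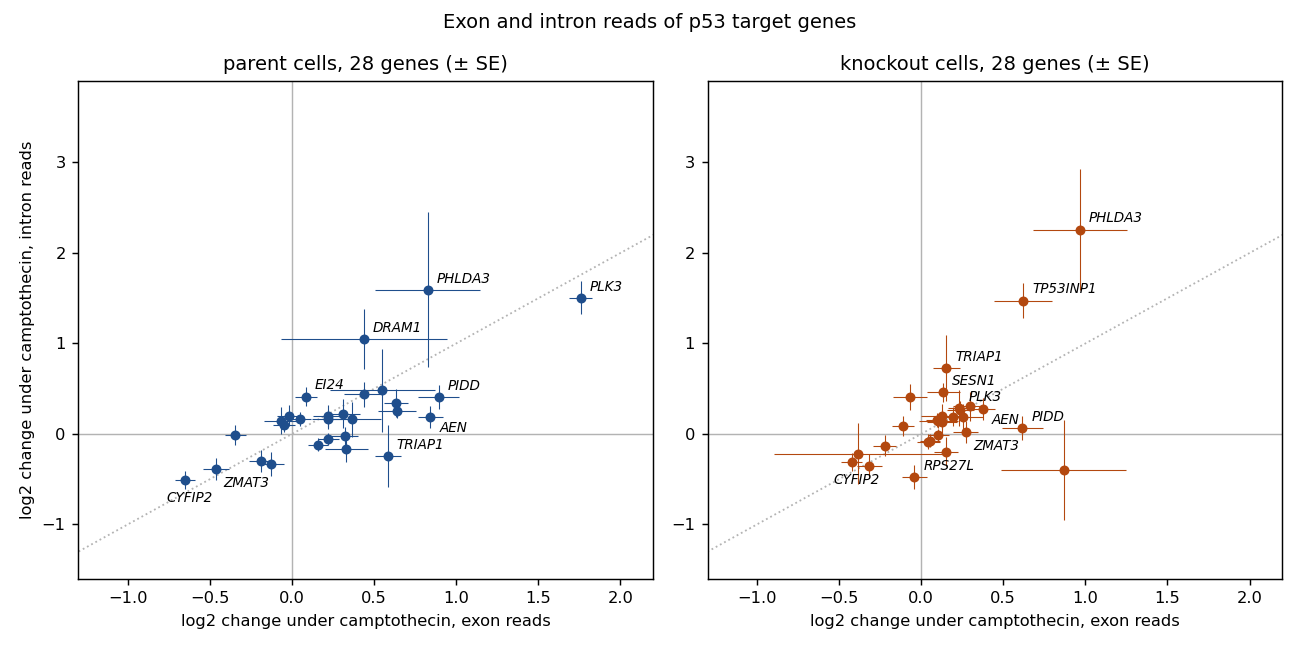
Log2 change under camptothecin in intron reads against that in exon reads for 28 p53 target genes in parent and in knockout cells, with standard errors and a dotted line of equal change. PLK3 rises in both readouts in parent cells, at 1.76 and 1.504.

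Without camptothecin, 6 of the 29 genes were higher and 1 was lower in knockout than in parent cells, which is 20.7% and 3.45%, against 8.26% and 7.44% of all genes. The genes that were higher are TP53I3, ZMAT3, FAS, FDXR, AEN and PHLDA3. TP53I3 read 2.81, 3.63 and 2.82 CPM in parent and 7.10, 6.17 and 6.04 CPM in knockout libraries (log2 1.06, SE 0.13, 2.09-fold, adjusted p = 1.66e-05). All of its exon reads fall where FAM228B overlaps, and FAM228B itself differed by 0.07 in exon reads (edgeR adjusted p = 0.837). In intron reads FAM228B read 48.53 to 54.06 CPM in untreated parent and 56.49 to 59.31 CPM in untreated knockout libraries. The source of the TP53I3 reads among the 2 genes cannot be told apart. ZMAT3, with the values above, was higher by 0.64 (SE 0.0771, 1.56-fold, adjusted p = 1.4e-05), and FAS by 0.53 (SE 0.0724, 1.45-fold, adjusted p = 5.65e-05), from 18.5, 19.1 and 17.9 to 27.1, 26.9 and 26.2 CPM. FDXR was higher by 0.44 (SE 0.103, adjusted p = 0.00788), from 10.4, 14.3 and 12.5 to 16.9, 16.4 and 16.8 CPM. AEN was higher by 0.25 (SE 0.0774, adjusted p = 0.0352), a call lost in 6 alternative analyses. Knockout libraries of all 5 of these genes lay above the parent ones.

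PHLDA3 was higher by 1.36 (SE 0.317, adjusted p = 0.00679) and TNFRSF10B lower by 1.36 on the log2 scale (log2 -1.36, SE 0.366, adjusted p = 0.0166), but both were below 1 CPM on average in all untreated groups. In intron reads none of the 28 genes differed between untreated cells (edgeR, 2 genes at an unadjusted p below 0.05; DESeq2 called 0), whereas 8.17% of all genes were higher and 6.43% lower. ZMAT3 intron reads differed by -0.06 (adjusted p = 0.786) where its exon reads differed by 0.64. FAS was called in introns without parent control replicate 1, at 0.40 (adjusted p = 0.0198). Fitted with the untreated libraries alone, 3 genes were higher in exon reads and 0 lower, while calls over all genes went from 3697 to 2104. TNFRSF10B was also not called without untreated knockout replicate 2 or 3. The untreated libraries also enter the camptothecin comparisons, so the results for FAS, AEN and ZMAT3 in both are not independent.

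**Figure D4:**
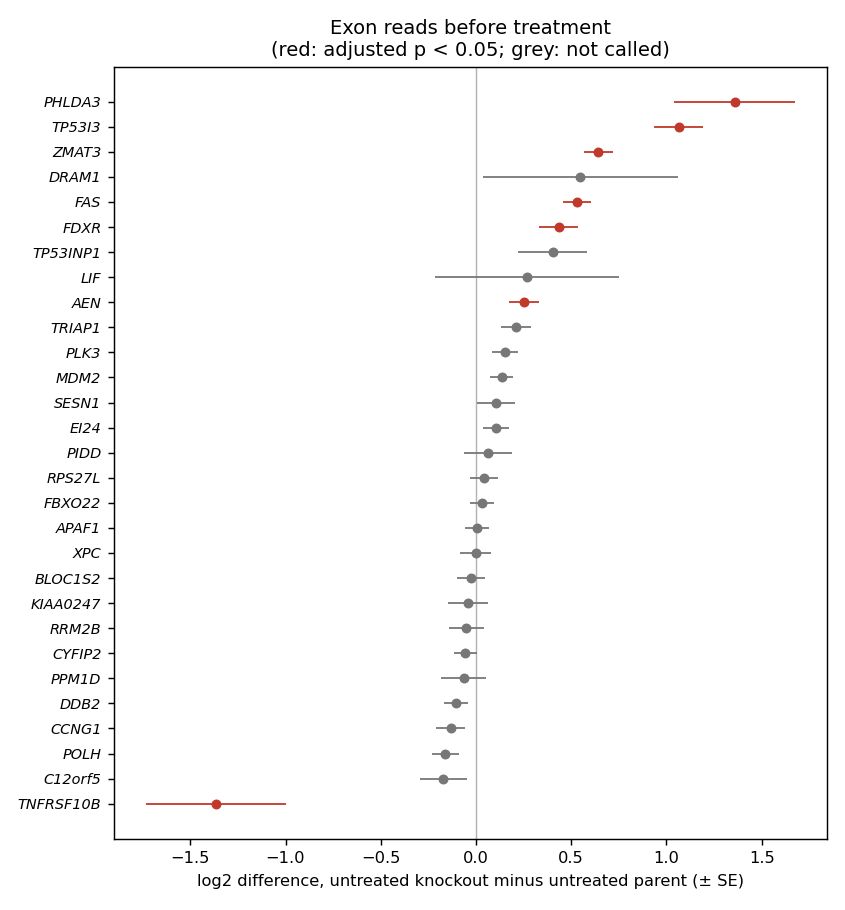
Log2 difference in exon reads of untreated knockout minus untreated parent cells for the 29 tested p53 target genes, with standard errors, called genes in red and others in grey. TP53I3 and ZMAT3 are higher in the knockout cells at 1.06 and 0.64, and TNFRSF10B is lower at -1.36.

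The genes of the p53 family and its upstream regulators, of which 38 of 39 with a row were tested, were counted in the same way. In parent cells 10 rose and 13 fell, with a median log2 change of -0.147, against 16.8% of all genes higher and 17.1% lower. Of the same list in knockout cells 5 rose and 7 fell, with a median of -0.055, against 7.3% and 9.28% of all genes. Without camptothecin 2 of the 38 were higher and 10 lower in knockout than in parent cells in exon reads, with a median of -0.0769. Over all genes 8.26% were higher and 7.44% lower. Levels of SETD7 and DYRK2, for example, lay lower in the knockout cells. SETD7 read 41.34 ± 6.24 CPM (SD, n = 3) in untreated parent and 26.45 ± 0.802 CPM in untreated knockout cells. For DYRK2 these levels were 21.75 ± 1.37 and 16.29 ± 0.34 CPM. TP73, the p53 paralog, was 1 of the 2 higher genes. It read 1.571 ± 0.391 CPM (SD, n = 3) in untreated parent and 6.687 ± 1.30 CPM in untreated knockout cells, a log2 difference of 2.07 (SE 0.191, adjusted p = 7.13e-07). Its intron difference was 2.60 (adjusted p = 1.03e-12).

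Among the p53 targets, shorter genes tended to have the higher changes in exon reads. Over 29 genes, the correlation of log10 gene length with the log2 exon change was -0.55 (Pearson) and -0.48 (Spearman) in parent cells and -0.48 and -0.5 in knockout cells, given as a description with no test. In intron reads of 28 genes it was -0.26 and -0.16 in parent cells and -0.41 and -0.36 in knockout cells. Over all 23546 genes tested in exon reads it was -0.09 (Pearson) and -0.12 (Spearman) in parent cells and -0.08 and -0.11 in knockout cells. Over the 19908 genes tested in intron reads it was -0.03 and -0.03 in parent cells and 0.06 and 0.07 in knockout cells. The 10 genes that rose in parent cells had a median length of 11.9 kb, the 3 that fell of 90.3 kb and the 16 not called of 31.8 kb. The part of length in these changes was not tested.

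**Figure D5:**
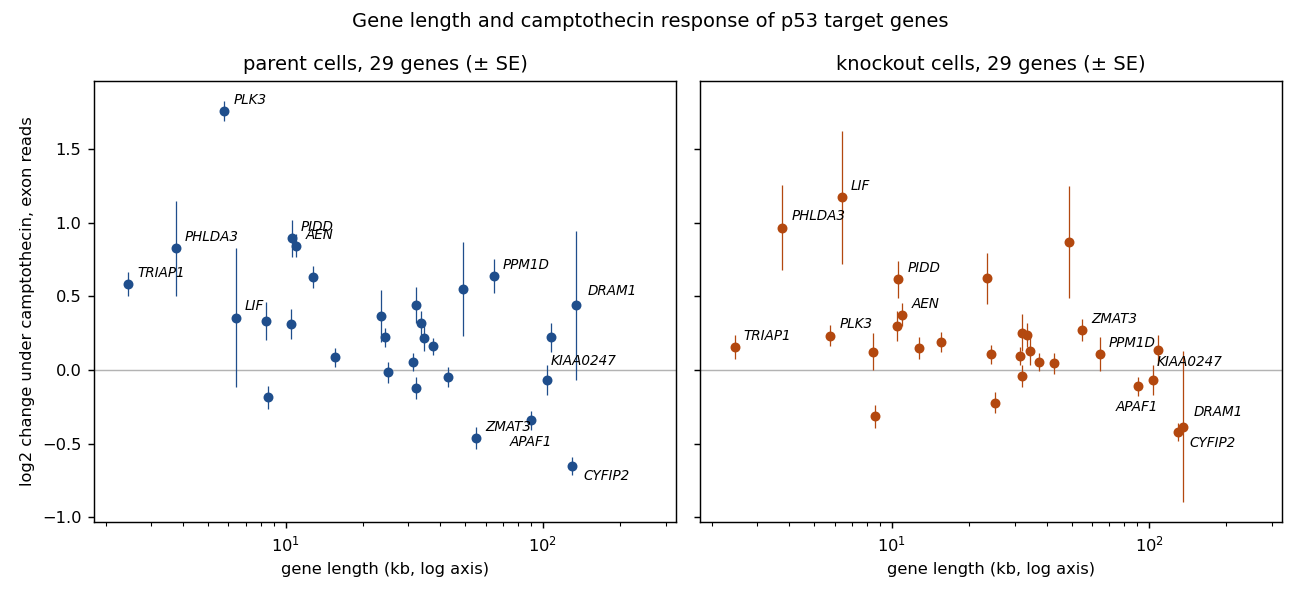
Log2 change under camptothecin in exon reads against gene length on a log axis for 29 p53 target genes in parent and knockout cells, with standard errors. TRIAP1, 2.45 kb long, rises by 0.58 in parent cells, and CYFIP2, 130 kb long, changes by -0.65.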

How the data were processed

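RNA of 12 libraries went through 1 HiSeq4000 paired-end run, per the labels' protocols. The library name of parent control replicate 1 is patterned differently from the others in the sample titles. Whether that library was prepared or sequenced apart is not stated. Per the submitters' processing notes, the tools were Trim Galore 0.6.2 and Trimmomatic 0.39, then also STAR 2.5.4a and Picard 2.9.2, with the build hg19; their roles are not stated. The authors deposited raw counts of exon and intron reads for each gene, per the file headers, and the table names mark that duplicates had been removed. Without molecular identifiers this compresses high counts. Of exon counts from 1 to 20, 68.3% were even. The TPM values that the authors deposited beside the counts, scaled to length, were not used. For the counter, annotation and strand setting, the answer is not given in the sources used here.

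Exon and intron counts were fitted separately with edgeR 4.0.16 (R 4.3.3, limma 3.58.1): filterByExpr with a minimum count of 10, TMM scaling, 1 mean per group over all 12 libraries, robust quasi-likelihood tests and Benjamini-Hochberg adjustment over 23546 and 19908 genes, called at 0.05. Up to 32 Y copies of X genes per library were left out. CPM used TMM-scaled library sizes, and the standard error was derived from the F statistic. The fit was tested on simulated data. Alternatives were DESeq2 1.42.0, other scaling, no filter, unique or whole-gene reads, a replicate block, fits of the compared groups only and leaving out each library. Values in every library are given for called genes whose groups do not overlap and whose higher group averages at least 1 CPM, at most 8 per direction and comparison; others are given by counts or, for regulators of interest, were added after their values were seen. The genes, lists and rules were chosen with earlier results of these data known, and overlapping partner genes were named after their values were seen. The values of 1 gene of the list of upstream regulators are not reported here.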

Additional observations from a re-analysis of the deposited data

Results flagged for a closer look

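For 5 genes in exon reads and 2 in intron reads, the response to camptothecin differed between knockout and parent cells by a direct test of the difference (edgeR, adjusted p below 0.05). In exon reads the difference, knockout minus parent on the log2 scale, was -1.525 for PLK3, -0.4788 for BLOC1S2, -0.4683 for AEN, -0.4285 for TRIAP1 and 0.7338 for ZMAT3. In intron reads it was -1.218 for PLK3 and 1.314 for TP53INP1. PLK3 is the gene of the set that differed in both readouts. ZMAT3 fell in parent cells and rose in knockout cells, and for the other exon genes the parent cells had the larger rise. The reads of TRIAP1 and TP53INP1 are shared with an overlapping gene.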

How the results depend on the processing

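Of 49 calls of p53 target genes over the comparisons and both readouts, 27 were kept in all alternatives that gave the gene a value. Another 22 were lost in at least 1, and 0 reversed. Alternatives that gave a gene no value were not counted for it. TP53I3, TRIAP1 and TP53INP1 had 0% unique exon and intron reads, so their calls, also those kept, did not face the fit of unique reads. Scaling by library size alone raised the count of genes called higher to 17 (parent, exon), 19 (knockout, exon), 10 (untreated, exon), 12 (parent, intron), 7 (knockout, intron) and 1 (untreated, intron), and left 1 lower for knockout exons, parent introns and knockout introns. It also moved the share of all called genes that were higher from 29.2% to 46.3% for the difference of responses and from 52.6% to 72.7% for the untreated comparison in exon reads. With only the groups compared in the fit, 10 genes rose in knockout exons, and 3 were higher and 0 lower in the untreated comparison. Over all genes the knockout exon calls went from 3902 to 5932, of which 1718 and 2762 were higher. Those of the untreated comparison in exons went from 3697 to 2104, of which 1945 and 1316 were higher. DESeq2 gave 2 genes with a higher difference of responses in exons, no filter gave 5 genes higher in knockout introns, and unique reads gave 1 lower there and 0 with a higher difference in introns. DESeq2 gave 0 genes in either direction in the untreated intron comparison. The cause of these shifts was not tested.

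With each library left out in turn, exon counts ran from 9 to 13 higher and 3 to 4 lower in parent cells, 2 to 10 higher and 2 to 3 lower in knockout cells, 1 to 3 higher and 2 to 6 lower for the difference, and 4 to 8 higher and 0 to 2 lower in untreated cells. Intron counts ran from 4 to 6 higher and 1 to 2 lower in parent cells, 2 to 6 higher and 0 to 3 lower in knockout cells, 1 to 2 in each direction for the difference, and 0 to 1 higher in untreated cells. Leaving out parent control replicate 1 gave the highest count in most of these ranges. Over all genes, exon calls in these fits ran from 6445 to 8833 in parent and 2519 to 6640 in knockout cells. They ran from 903 to 3503 for the difference and 2385 to 4327 in untreated cells. Intron calls over all genes ran from 3965 to 5700 in parent and 2199 to 4840 in knockout cells. They ran from 690 to 2057 for the difference and 1978 to 3354 in untreated cells. Deviations from the group means, over all tested genes, correlated at -0.0453 to 0.0426 between libraries of equal replicate number. Between libraries of unequal number the correlations were -0.0593 to 0.0587. Treated parent and treated knockout libraries were not compared in this way. Such low values cannot tell whether libraries of equal number shared a culture or day, and no label states a pairing. With the replicate block, exon counts were 10 higher and 3 lower in parent cells, 6 and 2 in knockout cells, 1 and 4 for the difference and 6 and 1 in untreated cells, and 1 gene was higher in untreated introns. In exon reads DRAM1, LIF, TNFRSF10B and PHLDA3, all under 1 CPM in untreated libraries on average, had the largest standard errors.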
